A study of Mus musculus with 33 samples.

Results

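Notch signalling was followed here through 10 genes: the receptors Notch1, Notch2 and Notch3, the ligands Jag1, Jag2, Dll1 and Dll3, the DNA-binding factor Rbpj, and the target genes Hes1 and Hey1. Members were the probe sets of the array whose annotation gave exactly 1 gene symbol and whose symbol was one of these 10, which came to 18 probe sets of 34945 and to 10 genes of 18193. Jag1 and Rbpj had 3 probe sets each, Notch1, Notch2, Notch3 and Jag2 had 2 each, and Dll1, Dll3, Hes1 and Hey1 had 1 each.

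The study measured RNA of enteric neural crest cells (ENCCs), the migrating precursors of the nerve cells and glia of the gut wall, and of whole gut, in mouse embryos of day 14.5. ENCCs came from C57BL/6 mice with a Wnt1-Cre recombinase and a floxed R26-YFP reporter, in which neural crest cells and their descendants turn fluorescent. They were sorted by their YFP and kept on fibronectin in a medium with FGF and EGF, which both ENCC groups received. The cells of 1 gut went into 2 wells, an untreated one and one given 50 ng/ml GDNF, the ligand of the receptor RET. Whole guts, cut from duodenum to anus, were from wild-type C57BL/6 embryos and carried neither transgene. The 9 ENCC guts gave 18 RNAs read on 25 arrays, since 7 RNAs were read in both of the 2 batches named in the titles, and 8 whole guts were read in batch 2 only. The sources used here give neither the length of the culture nor whether guts shared a litter or an RNA was pooled, so the p-values measure the spread between these samples.

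Notch receptors are cut by proteases when a Jagged or Delta ligand on a neighbouring cell binds them, and the freed intracellular part joins RBPJ and a Mastermind protein on DNA to switch on genes such as Hes1 and Hey1. DLL3 differs from the other ligands in that it does not activate receptors on neighbouring cells and can act on receptors of its own cell. In the developing enteric nervous system, Notch signalling is known for holding progenitors back from becoming neurons, through HES factors that repress proneural genes, and for favouring glia. GDNF is known for guiding ENCCs along the gut and for keeping them alive and dividing.

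Promoter sequences are shown for Jag1, Jag2 and Rbpj, the members whose difference between treated and untreated wells had 1 sign in all 9 guts. Jag1 and Jag2 are ligands of 1 family that moved in opposite directions, and Rbpj encodes the factor that binds DNA for the pathway. RefSeq promoter windows of build GRCm38.p6 were found for 8 of the 10 genes, and Hes1 and Hey1 were not matched. Each sequence below is the 250 bases before the start of the gene, 5′ to 3′ on the strand of the gene, with matches to TGGGAA, the core letters that RBPJ binds, or to its reverse complement in capitals. The Rbpj window lies at chr5:53590096-53590345 on the plus strand, the Jag1 window at chr2:137116521-137116770 on the minus strand and the Jag2 window at chr12:112929496-112929745 on the minus strand.
Rbpj: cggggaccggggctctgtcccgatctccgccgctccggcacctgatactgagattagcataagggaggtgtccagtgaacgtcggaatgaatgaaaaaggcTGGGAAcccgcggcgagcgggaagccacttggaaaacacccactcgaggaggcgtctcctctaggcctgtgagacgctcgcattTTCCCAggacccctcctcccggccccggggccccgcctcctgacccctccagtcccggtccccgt
Jag1: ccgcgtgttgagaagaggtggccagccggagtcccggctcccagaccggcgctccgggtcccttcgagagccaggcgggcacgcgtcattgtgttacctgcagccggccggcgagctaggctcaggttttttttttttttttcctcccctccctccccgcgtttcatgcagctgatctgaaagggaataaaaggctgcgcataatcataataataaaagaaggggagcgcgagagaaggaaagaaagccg
Jag2: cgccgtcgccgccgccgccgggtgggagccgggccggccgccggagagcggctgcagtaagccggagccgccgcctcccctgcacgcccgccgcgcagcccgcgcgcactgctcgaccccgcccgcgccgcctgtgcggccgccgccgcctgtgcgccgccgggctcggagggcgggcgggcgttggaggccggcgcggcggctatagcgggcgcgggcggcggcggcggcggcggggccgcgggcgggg

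The Rbpj window held the letters at 2 places, which begin at positions -149 and -65 from the start, the first on the strand of the gene and the second on the other strand. A second listed Rbpj start has a window that overlaps this one and holds the second of these matches again. The windows of the other 7 matched genes held none. Of all 32851 RefSeq windows, 21.6% held TGGGAA on either strand, and 2.77% held it at 2 or more places. The longer form GTGGGAA, which contains the same 6 letters, was in 5.42% of all windows and in none of the windows of these genes. A match is a description of the letters and not a binding site. The windows differed in base composition: 87.2% of the Jag2 bases were G or C, and 12 of the 32851 windows had more, while the Jag1 window had 57.2% and the Rbpj window 65.2%, against a median of 52.4%.

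Every value below is a score. As read from the values, each probe set was scaled on ENCC arrays of its batch, and probe sets were then ranked inside each array. The mean of the 7 RNAs read in both batches had an SD over probe sets of 0.0585 in batch 1 and 0.117 in batch 2. For 7 independent arrays this SD would be 0.378. So 0 stands near the mean of these 7 RNAs and 1 unit for roughly their SD. Other ENCC arrays need not centre on 0. Scores hold no fold change and no brightness, and levels of different genes cannot be set against each other. The score of a gene is the mean of its probe sets. Fewer cells of a type and less RNA per cell cannot be told apart in such bulk samples. The 2 arrays of 1 ENCC RNA correlated over all probe sets at 0.143 to 0.362, and the arrays of different whole guts at 0.912 or above. The 2 values are not alike, since 0 is set by ENCC arrays and all whole guts share their distance from it. In whole gut, 9 of 9 endothelial and 9 of 9 epithelial markers were higher than in untreated ENCCs, and 7 of 8 ENCC progenitor markers were lower, which goes against the cell type field of the whole gut samples, where neural crest cells are named.

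The Jagged ligands and, less firmly, Rbpj and the receptors differed between GDNF-treated and untreated wells. Treated wells had lower Rbpj, Jag1, Notch1, Notch2 and Notch3 and higher Jag2 than the untreated well of the same gut, while Dll1, Dll3, Hes1 and Hey1 did not pass the test. The test was limma on the 9 within-gut differences with Benjamini-Hochberg adjustment over all genes and a threshold of 0.05. It called 6 of the 10 genes, 1 higher and 5 lower. The receptor calls and the size of the Rbpj difference depended on the setting, as given below. Rbpj differed by -1.76 in batch 1 and by -0.48 in batch 2. Notch1 was not called once the score of spiked-in controls was added to the fit. Notch2 and Notch3 were not called in batch 1 alone. In batch 2 alone no gene was called. Of all 18193 genes, 31.5% were called, 18.3% higher and 13.2% lower. The median difference of the 10 genes was -0.51 and that of all genes was 0.0055.

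**Figure D1:**
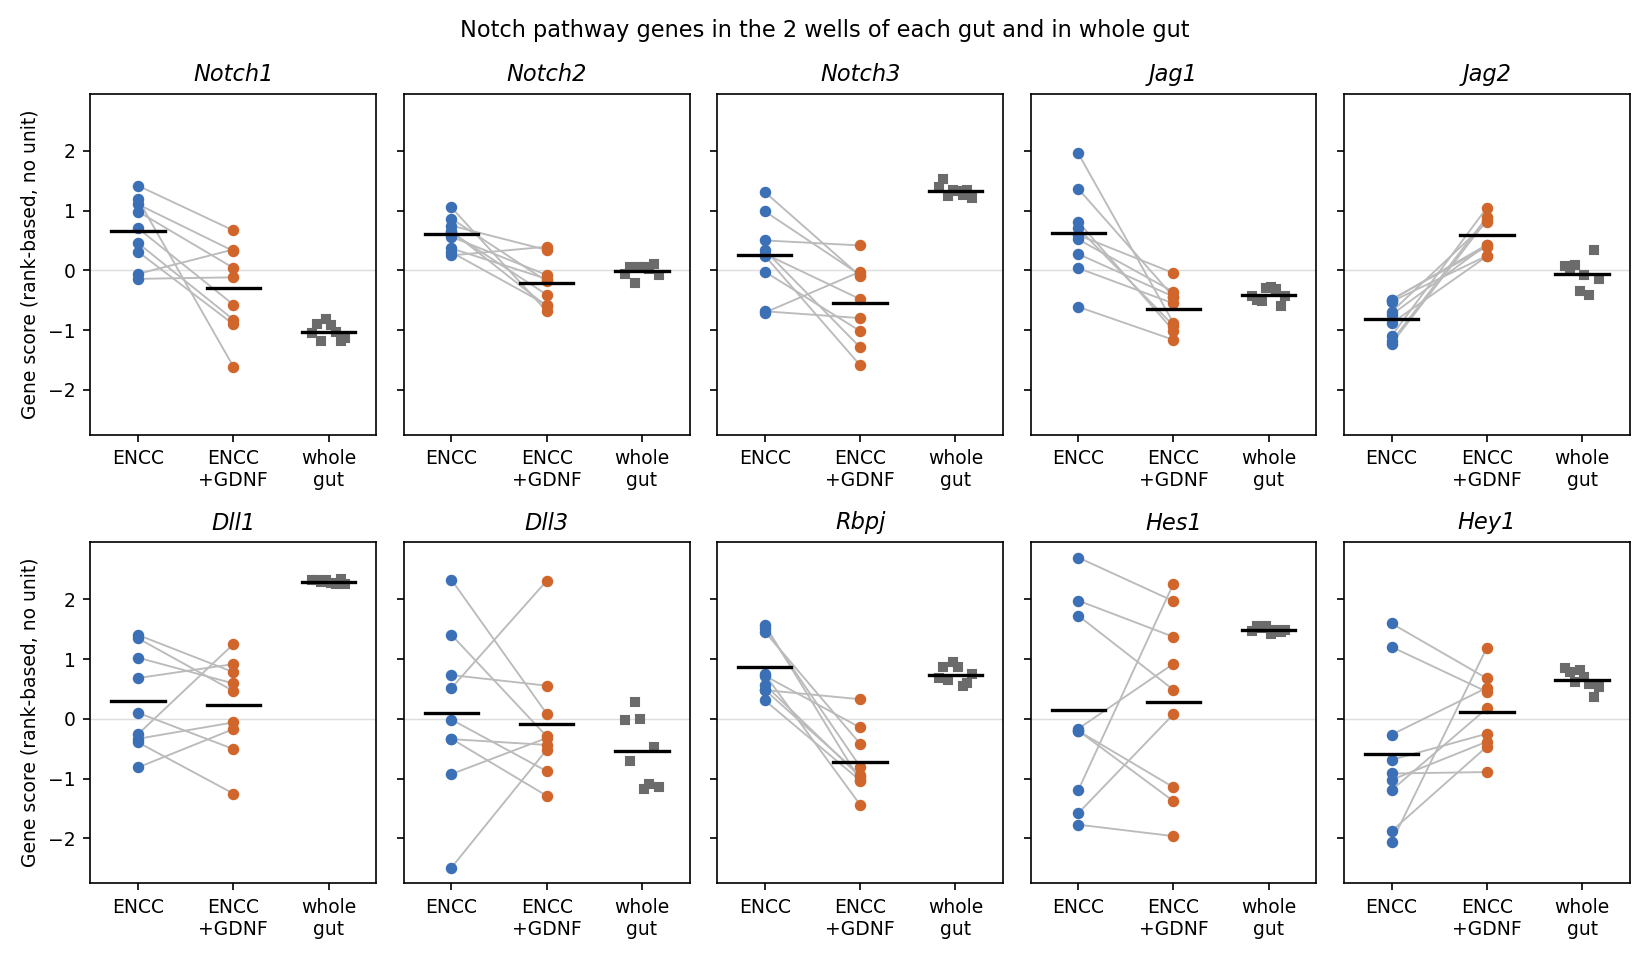
Gene scores (rank-based, no unit) of the 10 genes in 9 untreated and 9 GDNF-treated ENCC wells and in 8 whole guts. Grey lines join the wells of 1 gut, black bars are group means, and ENCC values of RNAs read in both batches are averaged. All 9 Jag2 lines rise, all 9 Jag1 and Rbpj lines fall, and the whole guts spread most in Dll3.

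Jag2, a membrane-bound Notch ligand, was the one member that rose. Untreated wells ran from -1.23 to -0.49 with a median of -0.74, and treated wells ran from 0.24 to 1.05 with a median of 0.43. The 2 groups of wells did not overlap. The within-gut difference was 1.46 ± 0.65 (SD, n = 9 guts, adjusted p = 0.000478), and it was above 0 in 9 of 9 guts, from 0.77 in gut 1 to 2.57 in gut 2. Of all genes, 17.8% had 1 sign in all 9 guts. Its probe sets, 1426430_at and 1426431_at, rose by 1.53 and 1.40.

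Jag1, the other Jagged ligand, fell. Its untreated wells ran from -0.61 to 1.96 with a median of 0.59, and its treated wells from -1.16 to -0.046 with a median of -0.56. The groups overlapped, because the untreated well of gut 1, at -0.61, lay among the treated wells, yet the treated well of that gut was lower still, at -1.16. The difference was -1.28 ± 0.79 (SD, n = 9 guts, adjusted p = 0.00241), below 0 in 9 of 9 guts. Gut 3 had the widest gap, from 1.96 to -0.88. All 3 probe sets fell, by 0.90, 1.34 and 1.59.

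The Delta ligands did not move in 1 direction. Dll1, an activating ligand, was higher with GDNF in 4 guts and lower in 5, from -1.70 in gut 2 to 1.51 in gut 1, with a mean difference of -0.17 ± 0.94 (SD, n = 9 guts, 95% interval -0.81 to 0.46, adjusted p = 0.704). Dll3 was higher in 3 guts and lower in 6, with a mean of -0.22 ± 1.49 (SD, n = 9 guts, 95% interval -1.11 to 0.67, adjusted p = 0.736). Both intervals include differences as large as the one called for Notch2. Dll3 in untreated wells ran from -2.49 in gut 1 to 2.33 in gut 4, and the treated wells of those 2 guts were at -0.52 and 0.086.

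**Figure D2:**
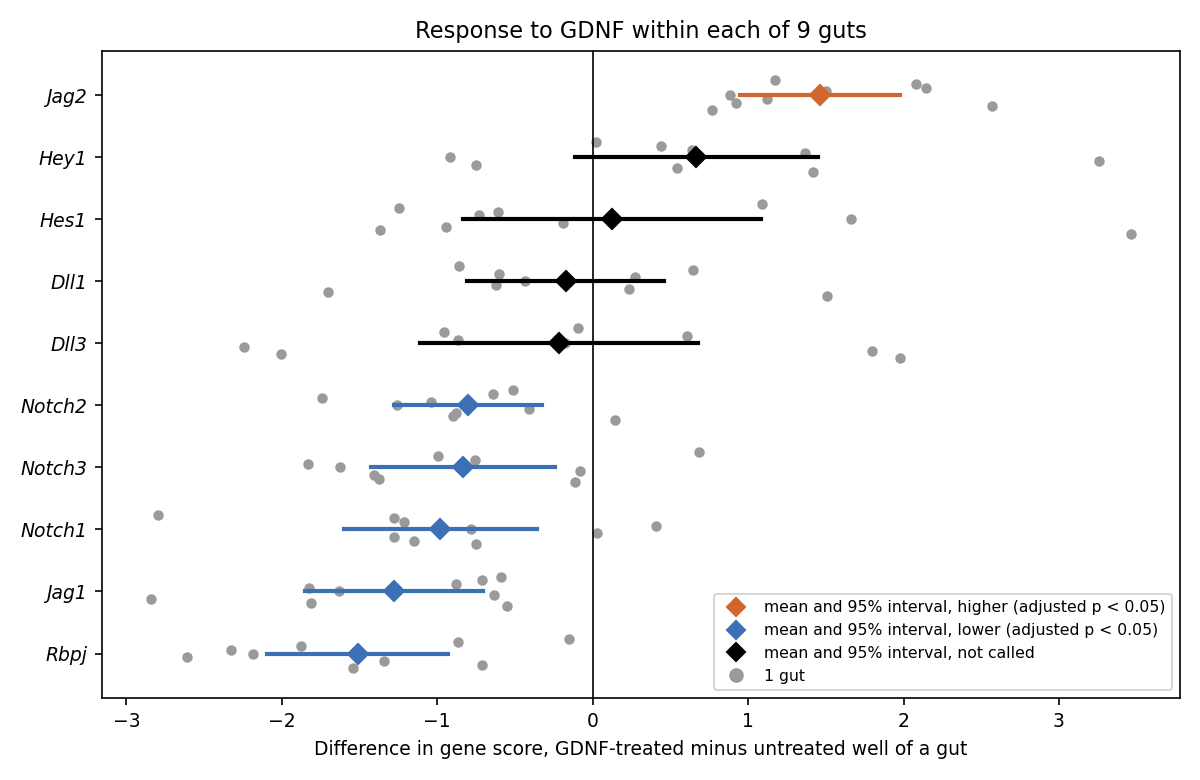
Difference in gene score between the GDNF-treated and the untreated well of a gut, with 1 grey point for each of 9 guts and the mean with its 95% interval from limma as a diamond and a bar. Jag2 lies above 0 in every gut, Jag1 and Rbpj lie below 0 in every gut, and the points of Hes1 run from -1.37 to 3.46.

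All 3 receptors fell, by 0.80 to 0.98. Notch1 untreated wells ran from -0.14 to 1.42 with a median of 0.70, and treated wells from -1.61 to 0.67 with a median of -0.12, so the groups overlapped. It fell by 0.98 ± 0.91 (SD, n = 9 guts, adjusted p = 0.0185), lower in 7 of 9 guts. Guts 4 and 6 went the other way, by 0.026 and 0.41, and they were the guts with the lowest untreated Notch1, at -0.14 and -0.059. The untreated score is subtracted in the difference, so a low one raises it, and this match shows no dependence of the response on the untreated level. Both Notch1 probe sets fell, by 0.89 and 1.07.

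Notch2 untreated wells ran from 0.25 to 1.05 with a median of 0.63, and treated wells from -0.69 to 0.40 with a median of -0.18, so the groups overlapped. It fell by 0.80 ± 0.54 (SD, n = 9 guts, adjusted p = 0.0132), lower in 8 of 9 guts, with gut 1 at 0.14 the other way. The Notch2 probe sets differed: 1455556_at fell by 1.27 (adjusted p = 0.00276), while 1451889_at had a difference of -0.34 (95% interval -0.95 to 0.27, adjusted p = 0.42), above 0 in 5 guts and below 0 in 4.

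Notch3 untreated wells ran from -0.71 to 1.31 with a median of 0.28, and treated wells from -1.59 to 0.42 with a median of -0.48, again with overlap. It fell by 0.83 ± 0.84 (SD, n = 9 guts, adjusted p = 0.0328), lower in 8 of 9 guts and higher in gut 9 by 0.69. The gene was called, but neither of its probe sets was, with differences of -0.96 (adjusted p = 0.0544) and -0.71 (adjusted p = 0.113). Its adjusted p rose to between 0.0551 and 0.0831 when gut 2, 3, 5, 6, 7 or 8 was left out, so the Notch3 call rests on each of these guts. An unpaired fit gave it -0.80 (adjusted p = 0.0627).

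Rbpj, the factor through which all Notch receptors reach DNA, fell as well, and its size differed between batches, as given below. Its untreated wells ran from 0.31 to 1.58 with a median of 0.72, and its treated wells from -1.44 to 0.33 with a median of -0.94. The groups touched at 1 point, the treated well of gut 9 at 0.33 against the untreated well of gut 3 at 0.31. The difference was -1.51 ± 0.82 (SD, n = 9 guts, adjusted p = 0.000874), below 0 in 9 of 9 guts, from -2.61 in gut 4 to -0.15 in gut 9. Its 3 probe sets fell by 2.06, 1.34 and 1.14.

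Hes1 and Hey1, the target genes, had within-gut differences with an SD larger than their mean. Hes1 untreated wells ran from -1.77 to 2.70 with a median of -0.20, and treated wells from -1.97 to 2.26 with a median of 0.49. Guts 6, 7 and 8 were high in both wells, at 2.70 and 1.97, 1.98 and 1.37, and 1.73 and 0.49, and gut 4 was low in both, at -1.77 and -1.97. The mean difference was 0.12 ± 1.62 (SD, n = 9 guts, 95% interval -0.83 to 1.08, adjusted p = 0.863), higher in 3 guts and lower in 6. Gut 1 alone gave 3.46, and without it the mean was -0.29. Hey1 was higher with GDNF in 7 of 9 guts, with a mean difference of 0.67 ± 1.26 (SD, n = 9 guts, 95% interval -0.11 to 1.45, adjusted p = 0.188). Its largest difference, 3.26, was in gut 4.

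Over the 9 guts, the untreated and treated scores of Hes1 correlated at r = 0.482 (exact permutation p = 0.188) and rho = 0.533 (exact permutation p = 0.148), and at r = 0.535 over the 8 guts of batch 1. Without the 2 guts farthest from the median untreated score, r was 0.139. Leaving these guts out also narrows the range of scores, so this r cannot show whether a relation rests on them. Of the 10 genes tested this way, Jag2 had the smallest p, with r = -0.718 (exact permutation p = 0.0381), rho = -0.567 (exact permutation p = 0.121), r = -0.591 without 2 guts and r = -0.393 in batch 1. Its adjusted p over the 10 genes was 0.381. No gene passed that adjustment.

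**Figure D3:**
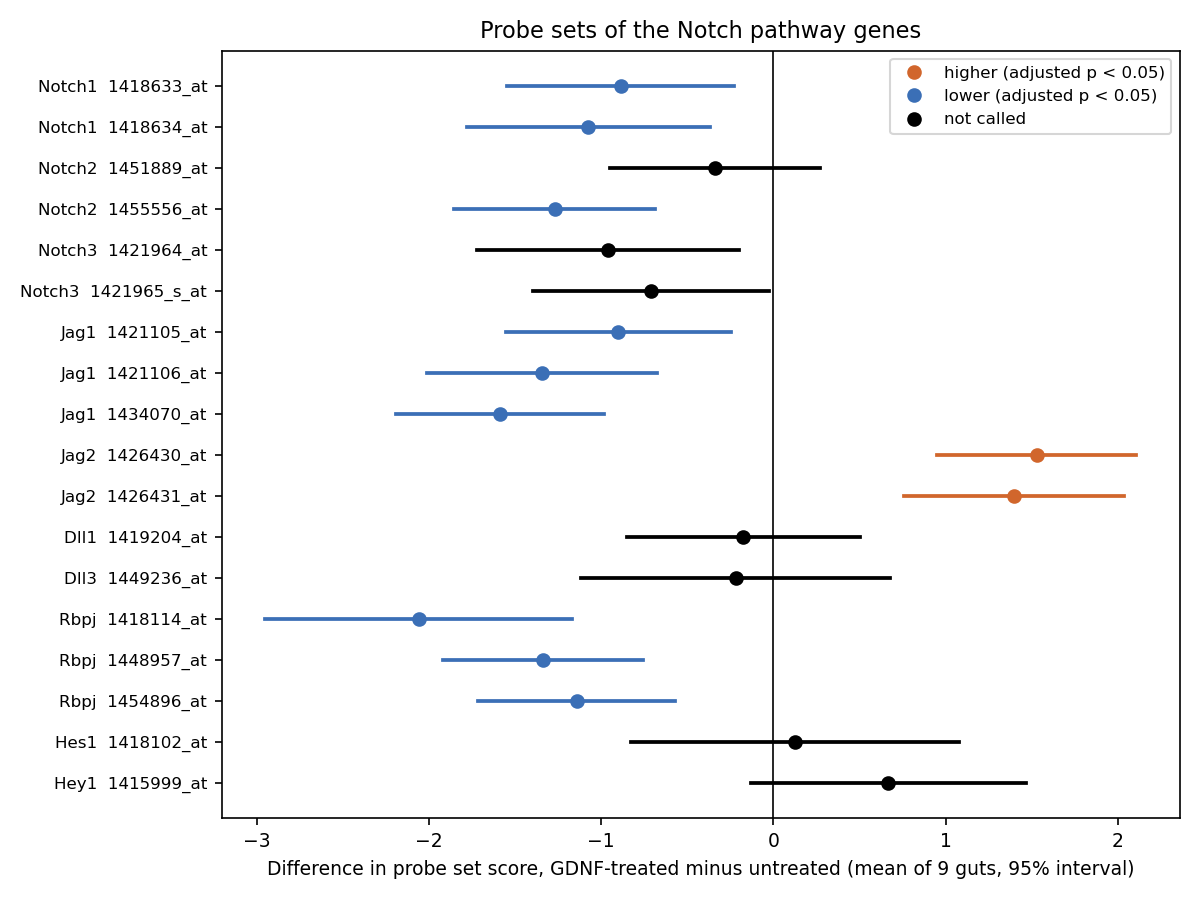
Mean difference in probe set score between GDNF-treated and untreated wells over 9 guts for each of the 18 probe sets, with 95% intervals from limma. All probe sets of Jag1, Rbpj and Notch1 lie below 0 and both of Jag2 lie above 0, while the Notch2 pair differs and neither Notch3 probe set is called.

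Among the 18 probe sets, 2 were called higher and 9 lower, with adjustment over all 34945 probe sets, of which 16.9% were called higher and 13.2% lower. Repeat arrays measured the genes unequally well. Over the 7 RNAs read in both batches, the 2 readings correlated at 0.971 for Notch1, 0.889 for Jag1, 0.863 for Hes1, 0.695 for Jag2 and 0.692 for Notch3, at 0.675 for Dll3 and 0.543 for Hey1, but at 0.45 for Rbpj, 0.426 for Notch2 and 0.172 for Dll1. Some single probe sets repeated less well: both of Notch2 (-0.485 for 1451889_at and -0.149 for 1455556_at) and 2 of the 3 of Rbpj (-0.039 for 1418114_at and -0.288 for 1454896_at) had correlations below 0 over these 7 RNAs. Others repeated better than the mean of their gene, such as 1434070_at of Jag1 at 0.954 and 1448957_at of Rbpj at 0.541. These RNAs include treated and untreated wells, so a correlation holds any GDNF difference.

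Batch means differed by less than 1 SD between guts for every called gene but Rbpj. Batch 1 held 8 guts and batch 2 held 4, and guts 3, 8 and 9 were in both. Jag2 differed by 1.47 ± 0.51 (SD, n = 8 guts) in batch 1 and 1.40 ± 1.12 (SD, n = 4 guts) in batch 2, and Jag1 by -1.28 ± 0.91 and -1.35 ± 1.08. Notch1 differed by -0.96 ± 0.98 and -1.63 ± 0.76, Notch2 by -0.74 ± 0.65 and -0.83 ± 0.22, and Notch3 by -0.80 ± 1.01 and -0.71 ± 1.00. Rbpj stood apart, at -1.76 ± 0.63 in batch 1 and -0.48 ± 0.71 in batch 2, where the 4 guts were at -0.71, -1.33, -0.19 and 0.32. In batch 1, guts 8 and 9 differed in Rbpj by -1.55 and -0.63, against -0.19 and 0.32 for the same RNAs in batch 2, while gut 3 differed by -1.35 and -1.33. With batch 2 alone, limma called 0 of 18193 genes, and 3516 genes (19.3%) had an unadjusted p below 0.05, among them Notch1, Jag1 and Jag2. Rbpj was not among them (unadjusted limma p = 0.362). With batch 1 alone, 29.3% of all genes were called and 4 of the 10, since Notch2 (adjusted p = 0.0545) and Notch3 (adjusted p = 0.0959) were not called.

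**Figure D4:**
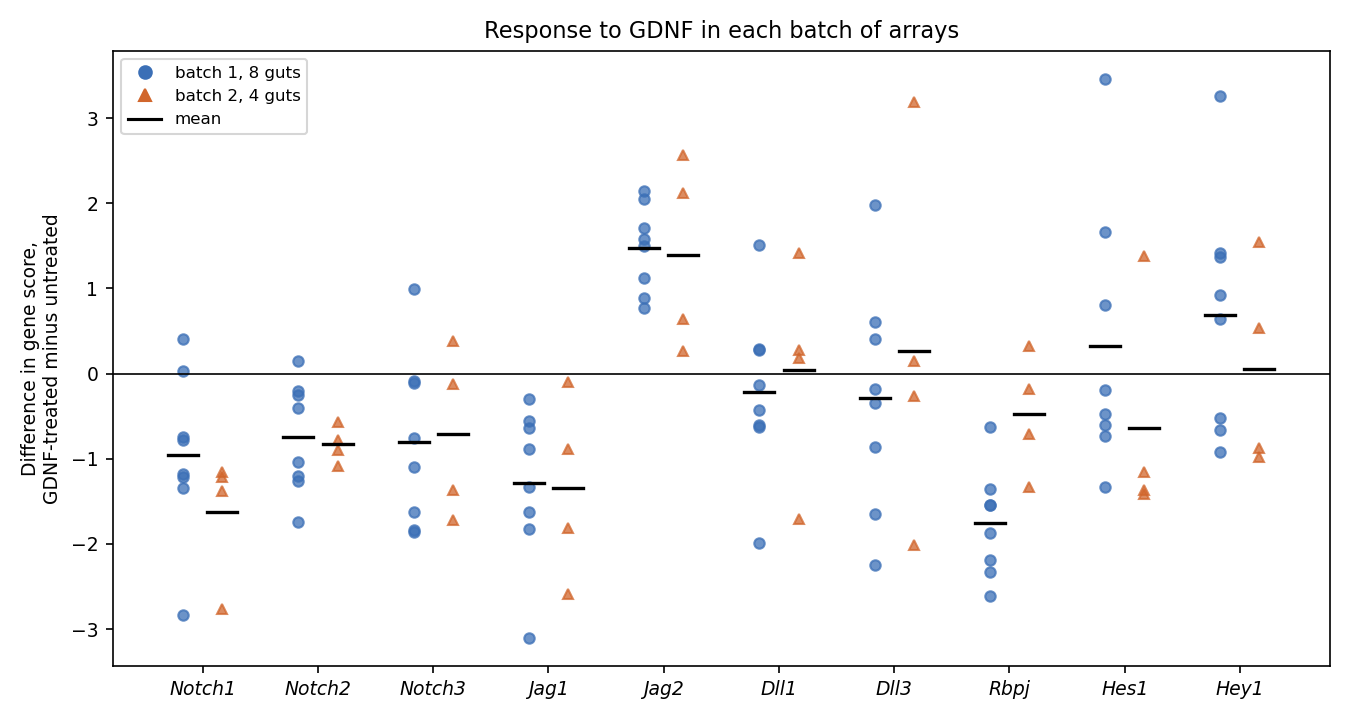
Difference in gene score between GDNF-treated and untreated wells in the 8 guts of batch 1 (circles) and the 4 guts of batch 2 (triangles), with the mean of each as a black bar. The batch means of Jag1, Jag2, Notch2 and Notch3 lie close together, and that of Rbpj is -1.76 in batch 1 and -0.48 in batch 2.

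Other measures moved with GDNF in the same wells. The mean of 6 ribosomal protein genes, a sign of RNA quality, was lower in 9 of 9 guts, by 0.99 ± 0.40 (SD, n = 9 guts), and that of 18 hybridisation control probe sets, which are spiked in and hold no mouse RNA, differed by -0.72 ± 0.99, lower in 6 of 9. Neuron markers rose in 7 of 9 genes, and their mean was higher in 9 of 9 guts by 1.29 ± 0.33. Mesenchyme markers fell in 4 of 8 genes, with a mean difference of -0.87 ± 0.71, lower in 8 of 9 guts. Averaged over its list, the neuron score was -1.61 to -0.13 on untreated and -0.33 to 0.75 on treated arrays, and the mesenchyme score was -0.61 to 1.19 and -1.39 to 0.39. When the score of these controls entered the fit as a covariate, Notch1 differed by -0.77 and was no longer called (adjusted p = 0.142). The part of the other lists in the Notch results was not tested.

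The wider pathway was followed through 79 other genes, of which 73 were measured. A GDNF difference was called for 30 of these, 11 higher and 19 lower, a share of 41.1% against 31.5% of all genes, and their median difference was -0.067. With the control score as a covariate the count was 16, of which 9 were higher and 7 lower, a share of 21.9% and thus below the 25.2% of all genes called in that fit. The lists were chosen with earlier results of these data known, so the share is a description.

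Among the other receptors and ligands, 2 rose and 1 fell of 5, where 31.5% of all genes were called. Dner, a transmembrane Notch ligand of neurons, rose by 1.61 ± 0.33 (SD, n = 9 guts, adjusted p = 7.67e-05) and Dlk2, a Delta-like protein without the receptor-activating DSL domain, rose by 1.501 ± 0.86 (SD, n = 9 guts, adjusted p = 0.00112), each in 9 of 9 guts. Notch4, a receptor known from endothelium, fell by 0.59 ± 0.40 in 8 of 9 guts (adjusted p = 0.0389). Dll4, a ligand known from endothelium, had a difference of 0.062 ± 1.00 (adjusted p = 0.903). The 9 endothelial markers had a median difference of 0.20 with GDNF, and 1 was called.

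Among other HES and HEY factors and feedback genes, 3 of 9 rose, where 18.3% of all genes were called higher. Nrarp, a feedback inhibitor induced by Notch, rose by 0.98 ± 0.86 in 7 of 9 guts (adjusted p = 0.0156). Hey2, a repressor of the HEY family, rose by 0.91 ± 0.67 (adjusted p = 0.0111) and Dtx1, a Deltex ubiquitin ligase that binds Notch, by 0.75 ± 0.31 (adjusted p = 0.00887), each in 9 of 9 guts. Hes5, a Notch target of neural progenitors, had a difference of -0.067 ± 0.83, Hes6, an antagonist of Hes1, one of -0.42 ± 0.51, and Heyl one of 0.27 ± 1.19, with adjusted p-values of 0.882, 0.163 and 0.604.

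The counts of the next 3 lists stand beside 31.5% of all genes called, 18.3% higher and 13.2% lower. Of 7 genes of receptor cleavage measured, 3 fell: Aph1a and Ncstn, subunits of gamma-secretase, by 1.17 ± 0.60 (adjusted p = 0.00168) and 0.65 ± 0.45 (adjusted p = 0.0277), and Adam17, a protease that sheds cell surface proteins, by 0.92 ± 0.70 (adjusted p = 0.0117). In the list of receptor glycosylation, Pofut1, which adds fucose to Notch, fell by 0.80 ± 0.46 in 9 of 9 guts (adjusted p = 0.00963), and Rfng, a Fringe enzyme that extends this fucose, rose by 0.78 ± 0.60 in 8 of 9 (adjusted p = 0.0191), while the other 3 of 5 were not called. Of 14 genes of ubiquitination and trafficking, 2 rose and 1 fell, a share below that of all genes. Neurl1b, a ubiquitin ligase for Notch ligands, rose by 1.25 ± 0.60 and Dtx4 by 0.95 ± 0.86, and Dtx3 fell by 1.03 ± 0.92, with adjusted p-values of 0.00106, 0.018 and 0.0149. Numb, an inhibitor of Notch, had a difference of 0.17 ± 1.04 (adjusted p = 0.725).

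Of 21 genes measured in the list of nuclear coactivators and corepressors, 2 rose and 11 fell, and their median difference was -0.66. Of all genes, 18.3% were called higher and 13.2% lower. The mean over this list was lower in 9 of 9 guts, by 0.47 ± 0.23 (SD, n = 9 guts), and the ribosomal protein mean given above was lower in 9 of 9 as well. Maml1, the Mastermind coactivator that completes the complex with RBPJ, fell by 1.43 ± 0.75 in 9 of 9 guts (adjusted p = 0.00091). The corepressor gene Ctbp2 fell by 1.09 ± 0.41 and the histone deacetylase gene Hdac1 by 1.03 ± 0.36, each in 9 of 9 guts (adjusted p = 0.00116 and 0.00134), and the Groucho corepressor gene Tle4 rose by 1.08 ± 0.42 in 9 of 9 (adjusted p = 0.00127). Of the 12 proneural and early neuronal factors measured, 1 rose and 2 fell, a share below the 31.5% of all genes called. Myt1l rose by 1.29 ± 0.55 in 9 of 9 guts (adjusted p = 7e-04), and Neurod4 and St18 fell by 0.72 ± 0.63 and 0.71 ± 0.73 (adjusted p = 0.0309 and 0.046).

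The second question was how ENCCs compare with whole gut of the same embryonic age, taken from other embryos. Only the 4 guts read in batch 2 were set against the 8 whole guts, which share that batch, and the untreated and treated comparisons share the whole guts and the 4 ENCC guts. ENCC wells spread far more than whole guts, with a median SD over genes of 0.755 in untreated wells, 0.709 in treated wells and 0.154 in whole guts. On simulated data with this unequal spread, the plain limma fit made many false calls, and a fit with array weights for each group made far fewer. The weighted fit also missed more true shifts. For untreated wells it found 1.5% of shifts of 1 unit and 45.5% of shifts of 2 units, and the plain fit found 55.2% and 89.4%. The simulation changed 200 of 18193 genes, a far smaller share than was called in these data. How many shifts pass the adjustment depends on that share, so these percentages do not carry over to the data. Whether a call lost with weights is false was not tested. Each count is given in both ways, and calls that hold in both are put first.

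In untreated ENCCs, Notch1 and Jag1 were higher than in whole gut and Dll1 and Hes1 were lower in both fits. Limma called 9 of the 10 genes, 3 higher and 6 lower, where 42.6% of all genes were called, 19.8% higher and 22.8% lower. With weights it called 4, where 20.7% of all genes were called. Of the 10 genes, 6 had no overlap between the 4 wells and the 8 whole guts, namely Notch1, Notch2, Jag1, Jag2, Dll1 and Rbpj, and 27.6% of all genes had none. For Notch2 this held for the mean of probe sets that disagreed. The untreated well of gut 3 was 1.69 on 1451889_at and -1.25 on 1455556_at, where whole guts ran from 0.20 to 0.57 on the latter.

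Notch1 in the untreated wells of guts 2, 3, 8 and 9 was 0.99, 0.54, 0.55 and 1.23, while the whole guts ran from -1.19 to -0.82 with a median of -1.04. Every well lay above every whole gut. The difference was 1.86 (adjusted p = 2.03e-06, and 0.00233 with weights). Its probe sets differed by 1.69 and 2.02, and both were called in the plain fit. An exact permutation test over the 495 ways to choose 4 of the 12 samples gave p = 0.00202, the smallest it can give. Without overlap this p is fixed, so it adds nothing to the separation, and 27.6% of all genes had no overlap. The test also treats samples as interchangeable between groups, although ENCC wells spread more than whole guts. Of the 20 such tests, 1 for each gene in each comparison, 2 gave an exact unadjusted p below 0.05 where limma made no call: Notch2 (0.0222) and Jag2 (0.0343) in treated wells.

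Jag1 in the same wells was 1.37, 1.499, -0.018 and 0.23, and whole guts ran from -0.60 to -0.28 with a median of -0.43. Guts 2 and 3 stood well above the whole guts and guts 8 and 9 less so. The difference was 1.19 (adjusted p = 0.00198, and 0.0326 with weights). In the plain fit, its probe sets 1421106_at and 1434070_at were called, at 1.26 and 1.84. The probe set 1421105_at was not, at 0.48 (adjusted p = 0.249). On it the well of gut 8, at -0.72, lay below all whole guts.

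Dll1 in the wells was 1.35, 0.94, -1.67 and -0.41, and the whole guts lay between 2.26 and 2.34 with a median of 2.31. All wells lay below the whole guts, although they differed among themselves by about 3 units. The difference was -2.25 (adjusted p = 0.00049, and 0.00111 with weights). Hes1 in the wells was -0.20, -0.063, 1.42 and 0.018, against 1.42 to 1.55 with a median of 1.49 in whole gut, so that only gut 8 reached the whole guts. Its difference was -1.20 (adjusted p = 0.00149, and 0.00913 with weights).

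The other calls in untreated ENCCs were not kept with weights. Notch3 differed by -0.93 (adjusted p = 0.0157, and 0.0829 with weights), Hey1 by -0.83 (0.0372 and 0.237), Jag2 by -0.77 (0.00915 and 0.41), Notch2 by 0.59 (0.0151 and 0.218) and Rbpj by -0.47 (0.0299 and 0.436). The Jag2 groups were separated by little, with the highest well at -0.425 and the lowest whole gut at -0.4195. Rbpj turned to a difference of 0.13 when all 9 untreated RNAs were used. Among single probe sets in the plain fit, neither of Notch2 was called (adjusted p = 0.0505 and 0.524). Of Rbpj only 1448957_at was called, at -0.71 (adjusted p = 0.0128). Of Jag2 only 1426431_at was called, at -1.03 (adjusted p = 0.0129), and of Notch3 only 1421965_s_at, at -1.17 (adjusted p = 0.0131). In the plain fit, Notch3 was not called without gut 8 or gut 9 (adjusted p = 0.0581 and 0.0579), Hey1 without gut 2, 8 or 9 or any of 7 whole guts (0.0508 to 0.135), and Rbpj without whole gut 2, 4, 5 or 8 (0.0516 to 0.0585). Dll3 differed by 0.65 (adjusted p = 0.186), and whole guts varied most in this gene, from -1.17 to 0.29.

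In GDNF-treated ENCCs, Dll1, Hes1 and Notch3 were lower than in whole gut in both fits. Limma called 5 of the 10 genes, all lower, where 51.0% of all genes were called, 25.1% higher and 26.0% lower. With weights it called 3, where 31.9% of all genes were called. Of the 10 genes, these same 3 had no overlap with whole gut, and 34.9% of all genes had none.

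Notch3 in the treated wells of guts 2, 3, 8 and 9 was -0.38, -0.40, -0.41 and -0.036, while whole guts ran from 1.22 to 1.53 with a median of 1.34. The treated wells lay close together and far below. The difference was -1.64 (adjusted p = 1.93e-07, and 0.000264 with weights). Dll1 in these wells was -0.36, 1.12, -0.25 and -0.13, again below all whole guts, with a difference of -2.20 (adjusted p = 3.84e-06, and 1.66e-05 with weights). Hes1 was -1.57, -1.48, 0.26 and 1.40, the last just under the lowest whole gut at 1.42, with a difference of -1.84 (adjusted p = 0.00337, and 0.00297 with weights).

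Rbpj in treated wells was -0.23, -1.43, 0.21 and 0.60, and whole guts ran from 0.56 to 0.95. The difference of -0.95 was called in the plain fit alone (adjusted p = 0.0136, and 0.0798 with weights), as was that of Hey1, -0.78 (0.0295 and 0.184). Of the Rbpj probe sets the plain fit called only 1448957_at, at -2.04 (adjusted p = 0.000471). Notch1, at -0.16, -0.67, -0.83 and -1.53, lay around the whole guts, with a difference of 0.23 (95% interval with weights -0.52 to 0.98, adjusted p in the plain fit = 0.378). Jag1 differed by -0.15 (interval with weights -0.80 to 0.49, adjusted p = 0.461), Notch2 by -0.24 (interval with weights -0.81 to 0.33, adjusted p = 0.128), Jag2 by 0.63 (interval with weights -0.52 to 1.78, adjusted p = 0.0512) and Dll3 by 0.91 (interval with weights -1.73 to 3.56, adjusted p = 0.243). The Jag2 probe sets disagreed in the plain fit: 1426430_at was called higher, at 1.16 (adjusted p = 0.0101), and 1426431_at was not called, at 0.098 (adjusted p = 0.823). All 9 treated RNAs gave Notch1 a difference of 0.74 (adjusted p = 0.0201) and Jag2 one of 0.65 (adjusted p = 0.00286). Leaving out single samples ended the Hey1 call (adjusted p = 0.0503 without whole gut 1). It added calls for Notch1 without gut 9 (0.0215), Notch2 without gut 2 (0.0404), and Jag2 without gut 3 (0.00665), gut 9 (0.0333) or whole gut 7 (0.0456).

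**Figure D5:**
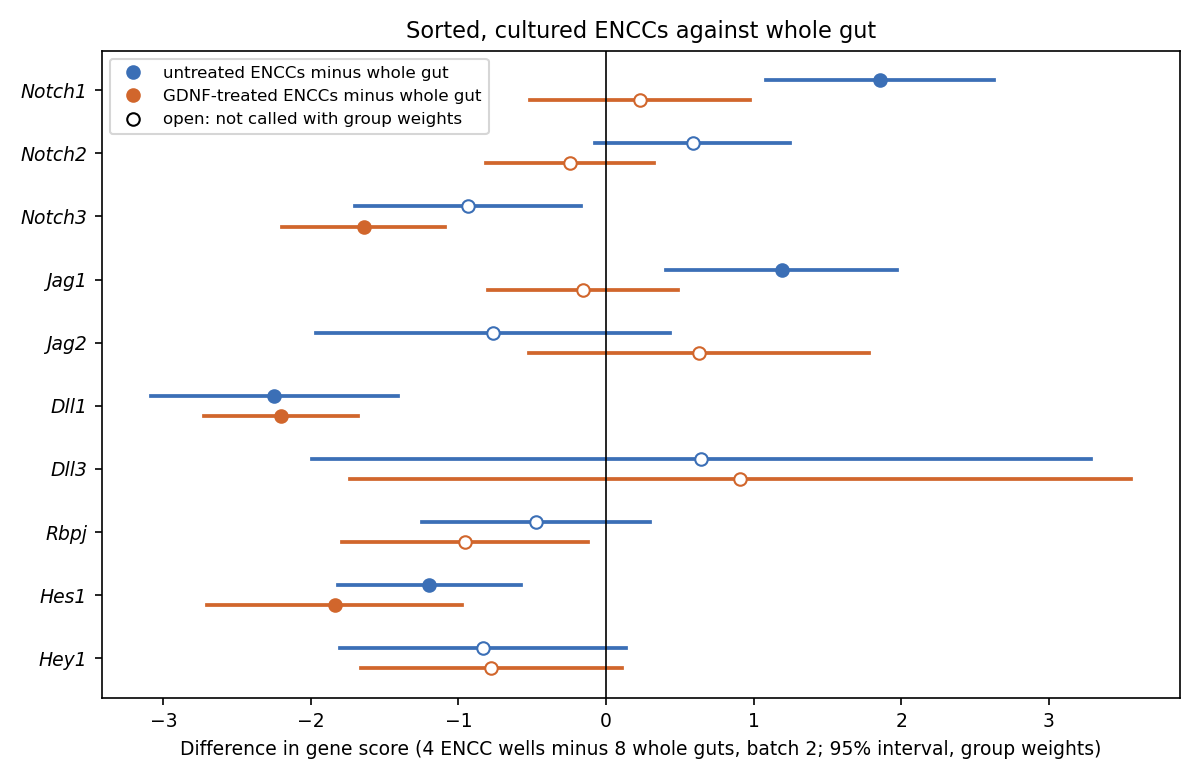
Difference in gene score between 4 ENCC wells and 8 whole guts of batch 2, for untreated (blue) and GDNF-treated (orange) wells, with 95% intervals from limma with group weights. Filled points were called with weights: Notch1 and Jag1 above 0 in untreated wells, Notch3 below 0 in treated wells, and Dll1 and Hes1 below 0 in both.

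Of the 73 other pathway genes, 12 were higher and 13 lower in untreated wells than in whole gut, a share of 34.2%, and 23 were higher and 19 lower in treated wells, a share of 57.5%, where all genes had shares of 42.6% and 51.0%. With weights 16 and 23 of them were called, or 21.9% and 31.5%, where all genes had shares of 20.7% and 31.9%. In the plain fit the untreated share was below that of all genes and the treated share was above it. With weights both shares were near those of all genes.

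Whole gut also holds the other cells of the organ. The 9 endothelial markers had a mean score of 1.91 to 2.02 in whole guts against -0.60 to 0.40 in untreated and -0.54 to 0.34 in treated wells of batch 2. Epithelial markers were at 2.77 to 2.84 against -0.81 to 0.27 and -0.38 to 0.71, and pericyte and smooth muscle markers at 1.23 to 1.31 against -0.35 to 0.38 and -0.38 to 0.32. Mesenchyme markers were at 1.19 to 1.40 against 0.29 to 0.93 and -1.39 to 0.17. A score has no zero for expression, so whether a marker was absent from a well cannot be read from it. The part of these cells in the lower Dll1, Hes1 and Notch3 of ENCCs was not tested.

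For each gene the others with the most similar scores over the 26 RNAs were found by the root mean square difference, which has the unit of the score. Notch2 had the closest match, Itpr2 at 0.19, followed by Ncoa1 and Uggt1, where the median gene was at 0.92. Jag1 was closest to Slc7a2 at 0.24, Galnt10 and Mmp11, Jag2 to Coprs at 0.32, Rims1 and Arhgap12, and Rbpj to Ryk at 0.38, Ctsz and B4galt1. Notch3 was closest to Nek6 at 0.39, Osr2 and Nckap5, and Notch1 to Garre1 at 0.44, Rsf1 and Arhgef26. Dll1 was closest to Adipor2 at 0.49, Rab17 and Plagl1, and Hey1 to Limk2 at 0.54, Atad5 and Itgb3. Hes1 was closest to Smco4 at 0.58, Cachd1 and Bhlhe40, and Dll3, the least matched of the 10, to Ift46 at 0.69, Car12 and Lrpap1. None of these genes is another of the 10.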

How the data were processed

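RNA of 18 ENCC wells and 8 whole guts was read on 33 Affymetrix arrays. The deposited values are scores, and the submitters' processing notes name RMA with no version. That each array holds the normal quantiles of its ranks (rank over n plus 1, largest deviation 5e-06), after a scaling of each probe set on ENCC arrays within a batch, was read from the values, since no label states it. Probe sets with 1 symbol in the platform annotation were averaged per gene.

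Groups came from the labels, and the titles' ENCC replicate numbers were read as gut numbers. Per the labels' treatment protocol 1 gut gave both wells, so treated minus untreated was taken inside a batch, with guts 3, 8 and 9 as the mean of 2 differences. The deviations of the 2 wells from their group means correlated at 0.0626 to 0.296 per gut. Whole guts carry numbers of other embryos and were not paired. Limma 3.58.1 in R 4.3.3 (lmFit, eBayes) was fitted over 18193 genes, with Benjamini-Hochberg adjustment and a threshold of 0.05. Exact permutation tests used NumPy and were two-sided. The fits were tested on simulated data. Named were the 10 genes, for each pathway list up to 4 genes past the GDNF test, further genes set by name (1 of them not reported here), and the 3 closest genes of each member. Members and lists were chosen with earlier results of these data known. Alternatives were leaving out a sample, batch, scale, probe set rule, spread, weights and a covariate. Arrays have no read depth, and their number limits the precision.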

Additional observations from a re-analysis of the deposited data

Results flagged for a closer look

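In 4 of 40 groups of samples, 1 sample lay far from the others by Dixon's test, which chance alone does in about 1 group in 20. Hes1 in untreated wells of batch 2 was 1.4215 in gut 8, against -0.1971 to 0.0175 in the other 3 guts. Dll3 in treated wells of batch 2 was 3.1648 in gut 3, against -0.6251 to -0.449, and Dll1 was 1.1186 in the same well, against -0.3561 to -0.1297. Notch3 in treated wells of batch 2 was -0.0357 in gut 9, against -0.4142 to -0.3834.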

How the results depend on the processing

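The members called with GDNF numbered 5 to 6 when 1 gut was left out, those of the other pathway genes 24 to 32 and those of all genes 5029 to 5909. Against whole gut, the members called ran from 7 to 9 in untreated and 4 to 7 in treated wells when 1 sample was left out, the other pathway genes from 25 to 37 and 39 to 45, and all genes from 7067 to 9497 and 8634 to 9835. An unpaired fit, without the gut as a block, called 5 members, 25 other pathway genes and 4859 genes, and lost Notch3 (-0.80, adjusted p = 0.0627) of the 10. The GDNF fit on batch 1 alone called 4 members and 5324 genes (29.3%), without Notch2 (adjusted p = 0.0545) and Notch3 (0.0959). Batch 2 alone gave limma calls for 0 genes, 0 members and 0 other pathway genes, while 3516, 3 and 17 had an unadjusted p below 0.05. With the hybridisation controls as a covariate 16 other pathway genes (21.9%) and 4592 genes (25.2%) were called, where the paired fit without it called 30 (41.1%) and 5725 (31.5%).

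With group weights, 3761 genes, 4 members and 16 other pathway genes were called in untreated wells against whole gut and 5805, 3 and 23 in treated wells. With the spread of the ENCCs alone, an alternative chosen after seeing the data, these were 3757, 4 and 16, and 5057, 3 and 24. On the simulated data, where few genes were changed, that alternative found 0% of shifts of 2 units in untreated wells. The plain fit gave 7752, 9 and 25, and 9281, 5 and 42.

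Signs turned for 1 called difference, that of Rbpj between untreated wells and whole gut, and otherwise for differences that were not called. With GDNF, Hes1 was -0.64 in batch 2, -7e-04 in a fit of all ENCC arrays and -0.38 with the covariate, and ran from -0.29 to 0.31 when 1 gut was left out. Dll1 was 0.043 in batch 2 and ran from -0.38 to 0.017, and Dll3 was 0.27 in batch 2 and ran from -0.49 to 0.035. Dll4 was -0.029 in the unpaired fit, -0.23 in batch 1, -0.22 with the covariate and -0.22 with the most reproducible probe set, and ran from -0.072 to 0.32. Hes5 was 0.0091 in the unpaired fit, 0.30 in batch 1, 0.033 with the covariate and 0.24 with the most reproducible probe set, and ran from -0.18 to 0.087. Numb was -0.040 without the batch 2 array of untreated gut 3 and -0.034 with the most reproducible probe set, and ran from -0.053 to 0.33. Against whole gut, Rbpj in untreated wells was 0.13 with all 9 RNAs and ran from -0.55 to -0.35 when 1 sample was left out. Jag1 in treated wells was 0.077 with the most reproducible probe set and ran from -0.31 to 0.015, and Dll3 in treated wells ran from -0.020 to 1.24. The cause of these turns was not tested.

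Scores keep no brightness, so dim probe sets were not left out. On these scores, which are centred on ENCC arrays, the arrays of 1 ENCC RNA correlated at 0.143 to 0.362. Only 4 ENCC guts shared a batch with whole gut.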
